A study of Homo sapiens with 15 samples.

Results

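Translation efficiency is the number of ribosome footprints on an mRNA relative to the amount of that mRNA. Its change after eIF3e siRNA was measured in cells of MCF-10A, an immortalised but non-tumorigenic line of human breast epithelium, as the difference between the change in footprints and the change in total RNA. It rests on 12 of the 15 libraries of the study: footprints after eIF3e siRNA (3) and control siRNA (3), and total RNA after eIF3e siRNA (3) and control siRNA (3). Genes were taken by symbol from the footprint and total RNA tables, and the 9055 that passed the count filter in both assays, out of 56475 symbols in the total RNA table, were tested. Cells of both groups had received siRNA at 20 nM for 72 h, and footprints of 26 to 34 nt were isolated. The labels name the target of the siRNA but not its sequence, nor how many siRNAs were used, and 1 cell line was studied. The labels do not say whether replicates came from separate cultures, and p-values therefore measure only the spread between these libraries.

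eIF3 is the largest of the initiation factors: it binds the small ribosomal subunit, holds the scanning complex together and bridges it to the cap-binding factor eIF4F. eIF3e is one of its subunits. A gene whose footprints and mRNA move by the same factor has no change in translation efficiency, whereas a gene whose footprints move away from its mRNA has one. Mitochondrial ribosomes translate the mitochondrial genome inside the organelle with initiation factors of their own and without eIF3.

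Footprint libraries held 2778843 to 3447360 counts after eIF3e siRNA and 1889543 to 2577895 after control siRNA, and total RNA libraries held 4263767 to 4680587 counts after eIF3e siRNA and 4480365 to 5646270 after control siRNA. The tested genes took 99.3 to 99.4% of the footprint counts, and 71.8 to 75.4% of the total RNA counts after eIF3e siRNA against 63.0 to 70.0% after control siRNA. Levels below are CPM, counts scaled to the same library total after adjustment by TMM factors, for which 3 counts correspond to 0.888 to 1.48 CPM in a footprint library and 0.524 to 0.690 CPM in a total RNA library. No pair of libraries agreed within sampling noise. Summed basal epithelial markers, none of the 11 at 0, gave 29300 to 30200 CPM of footprints after eIF3e siRNA and 30900 to 34600 CPM after control siRNA, and 12900 to 13700 CPM of total RNA after eIF3e siRNA and 13300 to 14600 CPM after control siRNA. Luminal markers (8, with ELF5 at 0 in all libraries) gave 408 to 474 CPM of footprints after eIF3e siRNA and 585 to 659 CPM after control siRNA, and 174 to 244 CPM of total RNA after eIF3e siRNA and 264 to 273 CPM after control siRNA. Fibroblast markers (7, mostly DCN, with COL1A2 at 0 in all libraries) gave 136 to 163 CPM of footprints after eIF3e siRNA and 65.5 to 92.2 CPM after control siRNA, and 51.2 to 55.6 CPM of total RNA after eIF3e siRNA and 30.6 to 39.6 CPM after control siRNA. Neither list overlapped between the groups in either assay. Blood cell markers (6, with CD3E at 0 in all libraries) gave 483 to 595 CPM of footprints after eIF3e siRNA and 278 to 317 CPM after control siRNA, mostly CD14 and CD68. In total RNA they gave 74.8 to 86.3 CPM after eIF3e siRNA and 45.1 to 81.1 CPM after control siRNA, mostly CD14, and the groups overlapped through control replicate 1, where the haemoglobin gene HBB stood at 37.4 CPM. Endothelial markers (4) reached at most 3.85 CPM after eIF3e siRNA and 5.92 CPM after control siRNA. The part of these markers in the results was not tested.

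EIF3E, the targeted gene (GRCh38 chromosome 8, 108201216 to 108248717), had 57.0, 40.3 and 63.7 CPM of footprints in the 3 eIF3e siRNA libraries, against 423, 393 and 386 CPM in the 3 control libraries. In total RNA it had 20.5, 21.4 and 25.8 CPM after eIF3e siRNA, against 196, 216 and 189 CPM after control siRNA. Every eIF3e siRNA library lay below every control library in both assays, and the gene therefore went with its label. Footprints and mRNA of EIF3E fell together (log2 change -2.89 ± 0.16 SE and -3.15 ± 0.12), so that its translation efficiency differed by 0.25 ± 0.20 on the log2 scale which missed the threshold (edgeR adjusted p = 0.665). The ratio of mean footprint CPM to mean RNA CPM was 2.38 after eIF3e siRNA and 1.999 after control siRNA.

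Few genes passed the test for a change in translation efficiency. Of 9055 genes, 22 (0.243%) passed an adjusted p of 0.05 in edgeR's quasi-likelihood test of the interaction between assay and siRNA: 7 (0.0773%) were higher and 15 (0.166%) lower after eIF3e siRNA. In the same genes, fitted apart within each assay, 18.9% passed for footprints (909 higher and 798 lower) and 46.6% for total RNA (2088 higher and 2128 lower). The 7 genes with higher translation efficiency were EIF4B, PABPC1, RPLP1, TMEM123, TMEM30B, MAL2 and REEP3. The 15 with lower translation efficiency included 3 mitochondrially encoded subunits of respiratory complex I (MT-ND1, MT-ND4 and MT-ND6), the linker histone gene HIST1H1E, the actomyosin genes MYL6, TMSB10 and ARHGDIA, the metallothionein gene MT2A, and ID1, SFN, KRT81 and IFIT1. At an unadjusted p of 0.05, 552 genes (6.10%) were higher and 523 (5.78%) lower, and the sign of the change was positive in 49.8% and negative in 50.2% of all genes. TMM factors within each assay place the typical gene near no change, so this even split follows from the scaling. All changes are relative to the other genes, and a shift common to all genes was not measured. The number of calls and their balance depended on the test and the settings: the DESeq2 Wald test called 81 genes higher and 70 lower, and edgeR without the count filter 22 and 21. A block of siRNA and replicate number in edgeR gave 84 and 68, though the labels do not say whether the numbers pair the libraries. With library totals in place of TMM factors all genes shifted downwards together, to a median change of -0.20 against -0.00172, and 3 genes were called higher and 89 lower. Leaving out 1 library at a time gave 0 to 22 genes higher and 0 to 30 lower. Without control total RNA replicate 2 no gene passed (lowest edgeR adjusted p = 0.0564, with 419 genes higher and 427 lower at an unadjusted p of 0.05).

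The size of the change that could be seen depended on depth. Across all 9055 genes the change in translation efficiency had an SD of 0.52, with 90% of genes between -0.89 and 0.79, and 566 genes (6.25%) were at least 2-fold away from no change. Among the 1839 genes with a mean count over 200 in each assay, its SD was 0.30, with 90% of genes between -0.44 and 0.50, and 11 genes (0.598%) were at least 2-fold away. In these deeper genes the SD of the footprint change was 0.60 and that of the total RNA change 0.57. The median SE was 0.67 in the 1487 genes with a mean footprint count up to 20, of which 1 was called, and 0.155 in the 445 genes with over 1000 footprint counts, of which 6 were called. The joint fit estimates a single spread, with a biological coefficient of variation of 0.153, whereas the libraries fitted apart gave 0.240 for footprints and 0.0921 for total RNA. The single spread lies below that of the footprints, so errors and p-values of the joint fit can be too small.

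**Figure D1:**
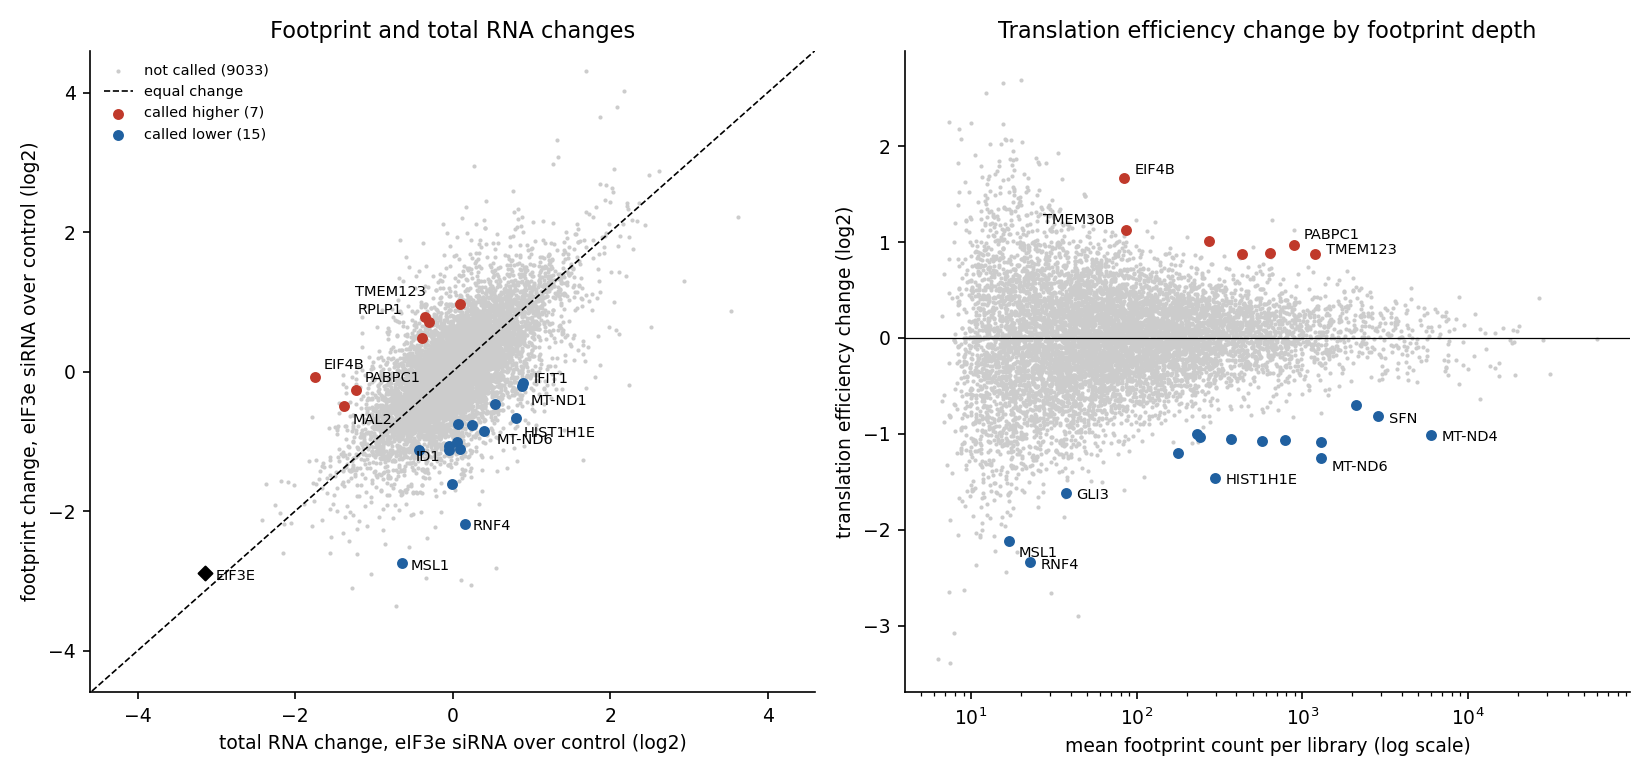
Left, the log2 change in footprints (y axis) against the log2 change in total RNA (x axis), eIF3e siRNA over control siRNA, for each of 9055 genes, with the line of equal change. Right, the log2 change in translation efficiency (y axis) against the mean footprint count on a log axis. Red points are the 7 genes called higher and blue points the 15 called lower, and the diamond is EIF3E, which lies near the line at the lower left of the left panel. The spread on the right narrows as the footprint count grows.

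Higher translation efficiency after eIF3e siRNA was found for 3 genes of the translation machinery. EIF4B encodes a factor that stimulates the helicase eIF4A during scanning, PABPC1 the cytoplasmic poly(A)-binding protein that joins the mRNA tail to eIF4G, and RPLP1 the acidic protein P1 of the ribosomal stalk. The mRNAs of many such genes begin with a C and a run of pyrimidines, the 5′ terminal oligopyrimidine element. The gene starts of EIF4B and RPLP1 are shown because both carry such a run, and those of TMEM123 and TMEM30B because they were called higher without one. Of the 7 genes with higher translation efficiency only these 4 had a matched start. PABPC1, MAL2 and REEP3 had none, so whether they carry such a run was not tested. The sequences are from RefSeq (GRCh38.p14), on the strand of the gene, 5′ to 3′, with 30 bases before and 20 after the start. Capitals mark a C followed by at least 4 bases that are each C or T, beginning at the annotated start.
EIF4B, chr12:53006426-53006475, plus strand: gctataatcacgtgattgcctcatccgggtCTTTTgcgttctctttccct
RPLP1, chr15:69452788-69452837, plus strand: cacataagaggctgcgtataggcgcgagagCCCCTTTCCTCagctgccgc
TMEM123, chr11:102452746-102452795, minus strand: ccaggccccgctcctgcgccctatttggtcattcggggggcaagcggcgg
TMEM30B, chr14:61281319-61281368, minus strand: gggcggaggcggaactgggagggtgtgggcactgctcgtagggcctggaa
An annotated start can lie some bases away from the start used in these cells, and a match is a description of these letters only.

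EIF4B (chromosome 12, 53006456 to 53042215) had 23.9, 31.6 and 37.6 CPM of footprints after eIF3e siRNA, against 19.2, 44.2 and 35.5 CPM after control siRNA. Its mRNA level was 24.9, 32.1 and 22.7 CPM after eIF3e siRNA, against 93.7, 101 and 70.8 CPM after control siRNA. Its footprints overlapped between the groups, while its mRNA was lower in every eIF3e siRNA library. Translation efficiency was 3.17-fold higher (log2 change 1.67 ± 0.34, edgeR adjusted p = 0.0352), made of a footprint change of -0.08 ± 0.30 that did not pass (adjusted p = 0.889) and a total RNA change of -1.75 ± 0.14. The ratio of footprint CPM to RNA CPM was 1.17 after eIF3e siRNA and 0.372 after control siRNA. This is the called gene of the higher group with the fewest footprints, 84.2 counts per library on average.

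PABPC1 (chromosome 8, 100702916 to 100722088) had the same form at a greater depth. It had 341, 286 and 296 CPM of footprints after eIF3e siRNA, against 320.0, 394 and 394 CPM after control siRNA, which overlap. Total RNA stood at 317, 382 and 299 CPM after eIF3e siRNA, against 817, 838 and 680.0 CPM after control siRNA, with no overlap. Its translation efficiency was 1.95-fold higher (0.97 ± 0.17, edgeR adjusted p = 0.017), with a footprint change of -0.26 ± 0.13 (adjusted p = 0.163) and a total RNA change of -1.23 ± 0.11 (adjusted p = 3.05e-10).

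RPLP1 (chromosome 15, 69452818 to 69456205) differed in form, since its footprints rose. It had 112, 137 and 122 CPM of footprints after eIF3e siRNA, against 71.6, 86.5 and 68.5 CPM after control siRNA. Its total RNA was 135, 208 and 146 CPM after eIF3e siRNA, against 217, 190.1 and 198 CPM after control siRNA. All eIF3e siRNA libraries were above all control libraries in footprints, and the groups overlapped in total RNA. Translation efficiency was 2.02-fold higher (1.01 ± 0.21, edgeR adjusted p = 0.0382). The footprint change was 0.71 ± 0.17 (adjusted p = 0.00258) and the total RNA change -0.30 ± 0.13 (adjusted p = 0.0497). How reads shared with near-identical gene copies were counted is not given in the sources used here, which leaves the levels of RPLP1 and PABPC1 uncertain, as for other ribosomal protein genes below.

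The other genes with higher translation efficiency were TMEM123, TMEM30B, REEP3 and MAL2. TMEM123, a heavily glycosylated protein with 1 membrane span (chromosome 11, 102396332 to 102452765), had 519, 598 and 578 CPM of footprints after eIF3e siRNA, against 314, 304 and 249.9 CPM after control siRNA. In total RNA it had 624, 587 and 601 CPM after eIF3e siRNA, against 565, 577 and 561 CPM after control siRNA. The eIF3e siRNA libraries were above the control libraries in both assays, by far more in footprints. Its translation efficiency was 1.83-fold higher (0.88 ± 0.15, edgeR adjusted p = 0.0139). Of the 7 it was the one whose total RNA did not pass (0.09 ± 0.09, adjusted p = 0.458), against a footprint change of 0.96 ± 0.13 (adjusted p = 7.3e-07).

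TMEM30B, an accessory subunit of lipid flippases (chromosome 14, 61277370 to 61281338), had 37.9, 47.2 and 34.1 CPM of footprints after eIF3e siRNA, against 26.2, 22.8 and 20.2 CPM after control siRNA. Its mRNA level was 59.1, 51.2 and 59.0 CPM after eIF3e siRNA, against 73.6, 74.4 and 68.5 CPM after control siRNA. Footprints and mRNA moved apart, both without overlap between the groups. Translation efficiency was 2.18-fold higher (1.13 ± 0.24, edgeR adjusted p = 0.0401), with changes of 0.78 ± 0.28 in footprints and -0.36 ± 0.11 in total RNA.

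REEP3, a protein of the endoplasmic reticulum membrane (chromosome 10, 63521401 to 63625128), moved apart in the same way. It had 183, 181 and 190.4 CPM of footprints after eIF3e siRNA, against 144, 152 and 102 CPM after control siRNA. Total RNA stood at 243, 219 and 231 CPM after eIF3e siRNA, against 291, 312 and 308 CPM after control siRNA. All eIF3e siRNA libraries were above the controls in footprints and below them in total RNA. Its translation efficiency was 1.83-fold higher (0.87 ± 0.17, edgeR adjusted p = 0.0289), with changes of 0.48 ± 0.15 in footprints and -0.39 ± 0.10 in total RNA.

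MAL2, a raft protein of apical membrane transport (chromosome 8, 119208363 to 119245673), was the 1 gene of the 7 whose footprints were called lower. It had 185, 230.1 and 207 CPM of footprints after eIF3e siRNA, against 236, 308 and 328 CPM after control siRNA. Its total RNA was 322, 354 and 391.6 CPM after eIF3e siRNA, against 863, 961 and 948 CPM after control siRNA. Both were lower in every eIF3e siRNA library, the mRNA by more. Translation efficiency was 1.85-fold higher (0.89 ± 0.17, edgeR adjusted p = 0.0269), from -0.49 ± 0.14 in footprints and -1.38 ± 0.10 in total RNA.

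**Figure D2:**
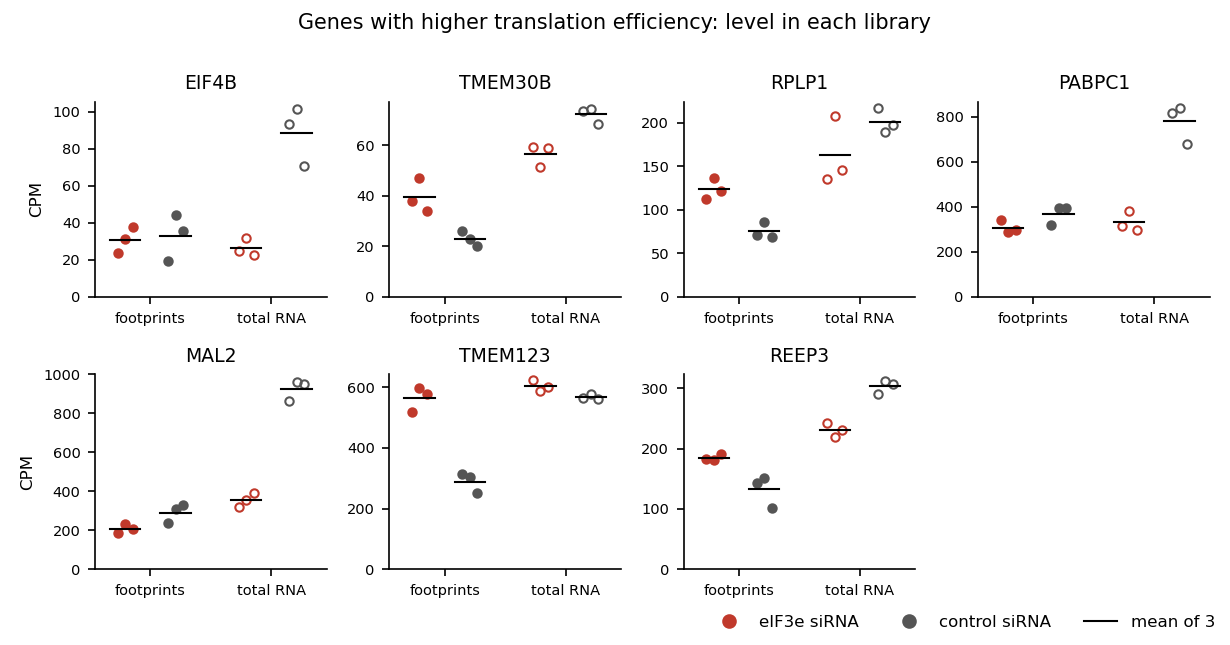
CPM (linear axis) of the 7 genes called higher in translation efficiency, in each of the 3 eIF3e siRNA and the 3 control siRNA libraries of each assay. Filled points are footprints, open points total RNA, and lines the mean of 3 libraries. In EIF4B and PABPC1 the footprints of the groups overlap and the total RNA is lower after eIF3e siRNA, whereas in TMEM123 the total RNA differs little and the footprints are higher.

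Lower translation efficiency included 3 of the 13 protein genes of the mitochondrial genome. All 3 encode subunits of complex I, the entry point of electrons into the respiratory chain. MT-ND2, MT-ND3, MT-ND4L and MT-ND5 encode other subunits of it and were not called. The change was below 0 in 11 of the 13 genes, and whether complex I differs from the rest was not tested. The titles of the footprint libraries name the particle of cytosolic ribosomes, and how footprints of mitochondrial ribosomes were recovered is not stated. The footprint values of mitochondrial genes may therefore depend on recovery, which was not tested. MT-ND6 had 325, 381 and 378 CPM of footprints after eIF3e siRNA, against 824, 529 and 603 CPM after control siRNA. In total RNA it had 144, 134 and 204 CPM after eIF3e siRNA, against 108, 138 and 119 CPM after control siRNA. Its footprints were lower in every eIF3e siRNA library, and its total RNA overlapped. The change in translation efficiency was -1.26 ± 0.22 (edgeR adjusted p = 0.017), from -0.85 ± 0.14 in footprints and 0.40 ± 0.13 in total RNA (adjusted p = 0.0191). MT-ND6 lies on the strand opposite to the other mitochondrial protein genes. Whether counting used strand is not given in the sources used here, so reads of its antisense transcript cannot be told apart.

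MT-ND4 had 1679, 1950.2 and 1606 CPM of footprints after eIF3e siRNA, against 3133, 3130.0 and 2618 CPM after control siRNA. Its mRNA level was 1119, 1129.6 and 1255 CPM after eIF3e siRNA, against 812, 969 and 1173 CPM after control siRNA. Footprints did not overlap and total RNA did, and translation efficiency changed by -1.01 ± 0.17 (edgeR adjusted p = 0.0149). MT-ND1 was called through its mRNA: its total RNA was 553, 537 and 691 CPM after eIF3e siRNA, against 280.3, 291 and 398 CPM after control siRNA. Its footprints, at 436, 551 and 403 CPM after eIF3e siRNA and 523, 584 and 499.8 CPM after control siRNA, overlapped. Its translation efficiency changed by -1.09 ± 0.20 (edgeR adjusted p = 0.017), from -0.21 ± 0.13 in footprints (adjusted p = 0.282) and 0.88 ± 0.12 in total RNA (adjusted p = 4.25e-06).

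The 13 mitochondrial genes as a list had 0 called higher and 3 lower (background 0.0773% and 0.166%), a median change in translation efficiency of -0.31 against -0.00172 over all genes tested, and 11 members below 0 (background 50.2%). Their median change was -0.12 in footprints and 0.22 in total RNA. MT-ND5, named after its values were seen, had a change of -0.64 ± 0.17 that did not pass (edgeR adjusted p = 0.127). The 2 members above 0 were those for subunits of ATP synthase, MT-ATP6 at 0.26 ± 0.20 (adjusted p = 0.654) and MT-ATP8 at 0.43 ± 0.24 (adjusted p = 0.506). Their reading frames overlap, so that reads there cannot be assigned with certainty. The median of the list stayed between -0.39 and -0.22 when each library was left out in turn.

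**Figure D3:**
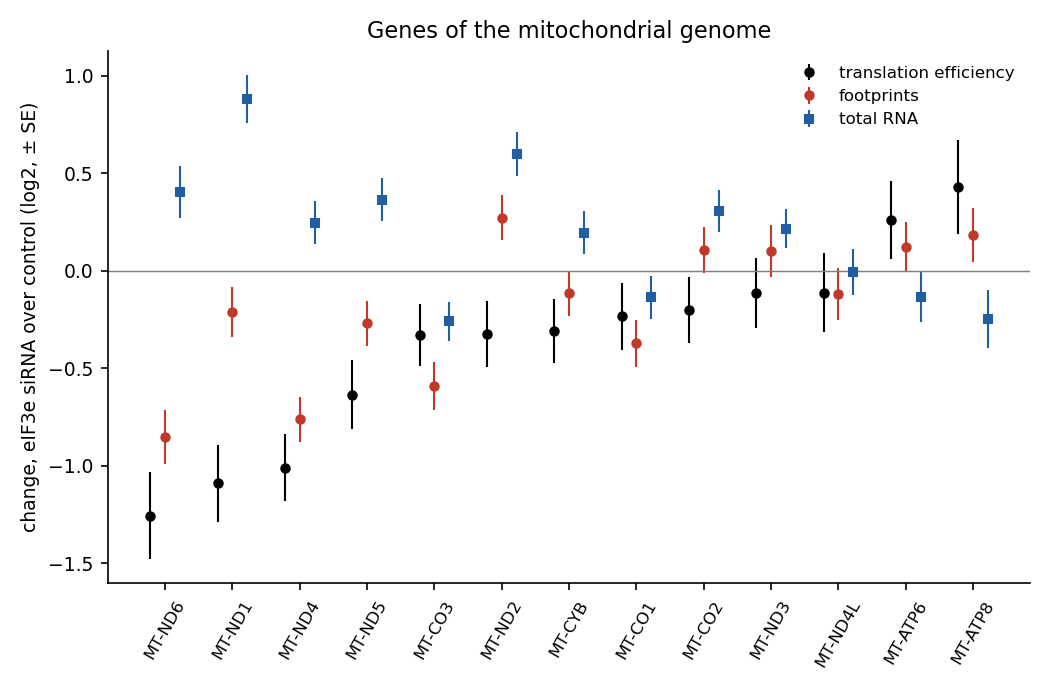
Log2 change, eIF3e siRNA over control siRNA, of translation efficiency, footprints and total RNA for the 13 mitochondrially encoded protein genes, with bars for ±1 SE. MT-ND1, MT-ND4 and MT-ND6 were called in translation efficiency, and MT-ATP6 and MT-ATP8 are the 2 genes above 0.

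Lower translation efficiency was also found for 3 genes of the actin and myosin cytoskeleton. MYL6, the essential light chain of non-muscle myosin (chromosome 12, 56158359 to 56161579), had 117, 144 and 168 CPM of footprints after eIF3e siRNA, against 364, 284 and 286 CPM after control siRNA. Total RNA stood at 77.2, 104 and 81.1 CPM after eIF3e siRNA, against 104, 95.4 and 70.8 CPM after control siRNA. Footprints fell without overlap and total RNA overlapped. The change in translation efficiency was -1.08 ± 0.22 (edgeR adjusted p = 0.0382).

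TMSB10, a thymosin that binds actin monomers (chromosome 2, 84905656 to 84906671), had 53.8, 63.5 and 68.4 CPM of footprints after eIF3e siRNA, against 106, 154 and 130.1 CPM after control siRNA. Its total RNA was 338, 359 and 339.9 CPM after eIF3e siRNA, against 415, 361 and 291 CPM after control siRNA. It repeated the form of MYL6, with -1.03 ± 0.20 in translation efficiency (edgeR adjusted p = 0.0269), -1.07 ± 0.18 in footprints and -0.04 ± 0.11 in total RNA. ARHGDIA (chromosome 17, 81867721 to 81871337) lay apart between the groups in both assays. Its footprints were 83.1, 58.8 and 80.9 CPM after eIF3e siRNA, against 102, 99.7 and 106 CPM after control siRNA. In total RNA it had 55.9, 65.9 and 65.8 CPM after eIF3e siRNA, against 44.8, 41.1 and 43.7 CPM after control siRNA. Neither assay overlapped between the groups. Translation efficiency changed by -0.999 ± 0.21 (edgeR adjusted p = 0.0382), total RNA by 0.54 ± 0.12 (adjusted p = 0.000398), and footprints by -0.46 ± 0.18, which did not pass (adjusted p = 0.0668).

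HIST1H1E, now named H1-4, encodes a linker histone that binds DNA between nucleosomes (chromosome 6, 26156329 to 26157115). It had 109, 71.5 and 88.8 CPM of footprints after eIF3e siRNA, against 148, 105 and 175 CPM after control siRNA. Its mRNA level was 82.7, 79.9 and 69.2 CPM after eIF3e siRNA, against 45.0, 42.6 and 45.5 CPM after control siRNA. Footprints overlapped, by 1 library on each side, and total RNA was higher in every eIF3e siRNA library. Translation efficiency changed by -1.46 ± 0.24 (edgeR adjusted p = 0.0139), from -0.66 ± 0.18 in footprints (adjusted p = 0.0088) and 0.80 ± 0.11 in total RNA (adjusted p = 1.24e-06). MT2A, a metallothionein that binds zinc and copper (chromosome 16, 56608584 to 56609497), had 40.1, 46.5 and 48.3 CPM of footprints after eIF3e siRNA, against 111, 83.3 and 95.6 CPM after control siRNA. Its total RNA, at 63.1, 86.0 and 76.7 CPM after eIF3e siRNA and 65.3, 69.5 and 76.8 CPM after control siRNA, overlapped. The change in translation efficiency was -1.20 ± 0.22 (edgeR adjusted p = 0.017). Histone and metallothionein genes have close copies, so the same uncertainty of shared reads holds for both, as it does for MYL6, TMSB10 and KRT81.

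The transcriptional regulator ID1 and the epithelial genes SFN and KRT81 had lower footprints with little or less change in mRNA. ID1, which binds basic helix-loop-helix factors and keeps them off DNA (chromosome 20, 31605289 to 31606510), had 175, 237 and 213 CPM of footprints after eIF3e siRNA, against 444, 426 and 388 CPM after control siRNA. Total RNA stood at 300.5, 361 and 344 CPM after eIF3e siRNA, against 308, 303 and 355 CPM after control siRNA. Footprints were lower in every eIF3e siRNA library and total RNA overlapped. Translation efficiency changed by -1.07 ± 0.17 (edgeR adjusted p = 0.0139), and total RNA by 0.06 ± 0.10 (adjusted p = 0.661).

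SFN, the 14-3-3 protein sigma of epithelial cells (chromosome 1, 26863149 to 26864456), had 763, 885 and 862 CPM of footprints after eIF3e siRNA, against 1611, 1384 and 1233 CPM after control siRNA. Its total RNA was 344, 386 and 368 CPM after eIF3e siRNA, against 378, 345 and 328 CPM after control siRNA. The footprints of the groups lay apart and the mRNA overlapped, with a change in translation efficiency of -0.82 ± 0.15 (edgeR adjusted p = 0.0245). KRT81, a keratin of the hair type (chromosome 12, 52285913 to 52291534), had 474, 533 and 588 CPM of footprints after eIF3e siRNA, against 1228, 1167 and 1081 CPM after control siRNA. In total RNA it had 257, 294 and 269.9 CPM after eIF3e siRNA, against 360.5, 380.1 and 364 CPM after control siRNA. Both fell, footprints by -1.12 ± 0.12 and total RNA by -0.43 ± 0.10 on the log2 scale, and translation efficiency changed by -0.69 ± 0.15 (edgeR adjusted p = 0.0391).

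IFIT1, an interferon-induced protein that binds mRNAs lacking a host-type cap (chromosome 10, 89392623 to 89406487), was called through its mRNA. Its footprints were 121, 148 and 129 CPM after eIF3e siRNA, against 169, 157 and 117 CPM after control siRNA, and overlapped. Its mRNA level was 85.3, 86.8 and 69.0 CPM after eIF3e siRNA, against 45.0, 49.5 and 34.2 CPM after control siRNA, with no overlap. Translation efficiency changed by -1.06 ± 0.22 (edgeR adjusted p = 0.0401), from -0.16 ± 0.16 in footprints (adjusted p = 0.548) and 0.90 ± 0.13 in total RNA (adjusted p = 1.42e-06).

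RNF4, MSL1 and GLI3, with mean footprint counts of 22.7, 16.8 and 37.2 per library, passed the test but not the minimum of 50 counts set for naming. RNF4, a ubiquitin ligase for SUMO-modified proteins (chromosome 4, 2469106 to 2515857), had 2.55, 3.99 and 3.85 CPM of footprints after eIF3e siRNA, against 10.6, 14.1 and 23.2 CPM after control siRNA. MSL1, the scaffold of a histone acetyltransferase complex (chromosome 17, 40121971 to 40136917), had 1.27, 1.81 and 2.37 CPM of footprints after eIF3e siRNA, against 14.7, 10.0 and 12.8 CPM after control siRNA. The hedgehog pathway factor GLI3 (chromosome 7, 41960949 to 42264268) had 7.64, 7.98 and 6.81 CPM of footprints after eIF3e siRNA, against 26.2, 21.9 and 20.7 CPM after control siRNA. All 3 lay without overlap, close to the floor of 3 counts in the eIF3e siRNA libraries of MSL1. The genes were called from these same libraries, so the lack of overlap is a description only. The changes in translation efficiency were -2.34 ± 0.46 for RNF4, -2.11 ± 0.44 for MSL1 and -1.61 ± 0.31 for GLI3 (edgeR adjusted p = 0.0269, 0.0382 and 0.0269).

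**Figure D4:**
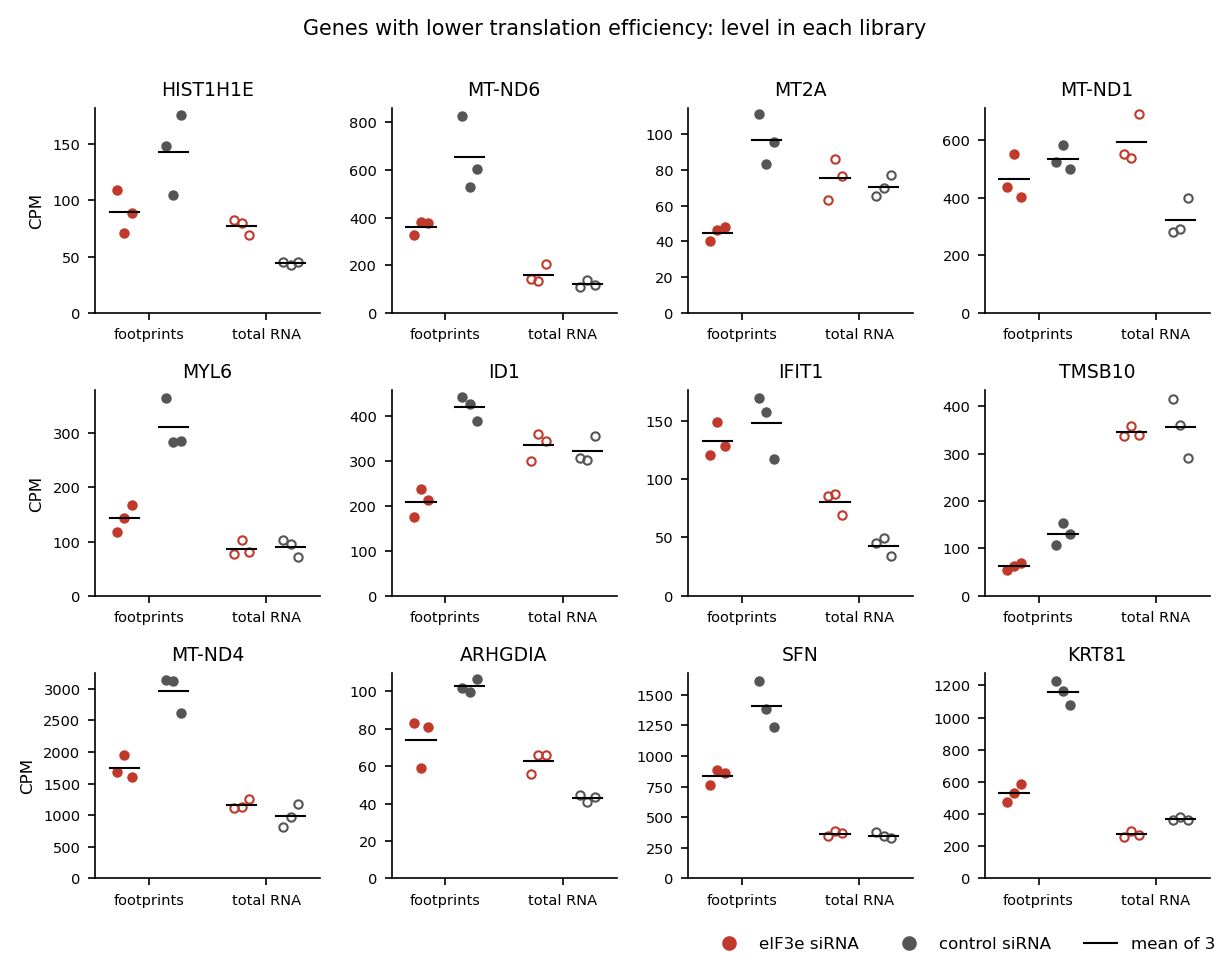
CPM (linear axis) of genes called lower in translation efficiency, in each of the 3 eIF3e siRNA and the 3 control siRNA libraries of each assay. Filled points are footprints, open points total RNA, and lines the mean of 3 libraries. MYL6, TMSB10, ID1 and SFN show lower footprints over overlapping total RNA, and MT-ND1 and IFIT1 show overlapping footprints over higher total RNA.

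The called genes fell into a small number of forms. Of the 7 genes with higher translation efficiency, 6 were called lower in total RNA (background 23.5% of genes tested) and 0 higher. Their footprints were called higher in 4 (background 10.0%), lower in 1 and in neither direction in 2. Of the 15 with lower translation efficiency, 12 were called lower in footprints (background 8.81%) and 0 higher, and 3 (ARHGDIA, IFIT1 and MT-ND1) passed in neither direction. Total RNA was called higher in 5 of the 15 (background 23.1%), lower in 2 (background 23.5%) and in neither direction in 8. The share called higher lay above its background and the share called lower below it, with few genes in each. Translation efficiency, footprints and total RNA are computed from the same 12 libraries, so these counts describe how each call was made up and are no independent evidence for it.

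The ratio of mean footprint CPM to mean RNA CPM also differed between the 2 sets. In the control libraries it was 0.314 to 0.510 in the 7 genes with higher translation efficiency, against a median of 1.12 over all genes tested, with 90% of genes between 0.290 and 3.32. After eIF3e siRNA the 7 genes stood at 0.583 to 1.17, against a median of 1.14 over all genes. The 15 genes with lower translation efficiency had a median ratio of 1.16 after eIF3e siRNA and 2.38 after control siRNA, with control values from 0.257 (MSL1) to 5.37 (MT-ND6). A gene with a low value in the control libraries is more likely to be called higher, since the same libraries enter the change, and the ratios are therefore given as a description.

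A pyrimidine run at the annotated start was found in 4.04% of 27305 RefSeq gene starts and in 446 (5.95%) of 7491 tested genes with a matched start. It was present in 2 of the 4 genes with higher translation efficiency that had a start (EIF4B and RPLP1), in 0 of 10 with lower translation efficiency, and in 36 (69.2%) of 52 ribosomal protein genes. When the run was allowed to begin within 5 bases of the start, it was found in 21.1% of all gene starts, in 23.1% of tested genes, in the same 2 of 4 genes with higher and in 2 of 10 with lower translation efficiency (ID1 and TMSB10, both 5 bases before the start), and in 82.7% of ribosomal protein genes. The 446 genes with the run had a median change in translation efficiency of 0.06, with 55.8% above 0, and the 7045 without it a median of -0.01, with 49.2% above 0. Without the ribosomal protein genes the median was 0.05 (410 genes). Both searches used the strand of the gene only.

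How firmly each call stands differs between the genes. HIST1H1E and ID1 passed in 11 of the 12 fits that leave out 1 library, TMEM123 and MT-ND4 in 10, PABPC1, MT2A and MT-ND6 in 9, and MT-ND1 and SFN in 8. MAL2, GLI3 and RNF4 passed in 6, EIF4B and REEP3 in 5, RPLP1, TMSB10 and MSL1 in 4, and TMEM30B, ARHGDIA and MYL6 in 3. KRT81 passed in 2 and IFIT1 in 1. Among the 22 called genes no direction changed in any alternative with a value. With limma-voom and a variance weight for each assay, RPLP1 (adjusted p = 0.0713), TMEM30B (0.102), GLI3 (0.101), MSL1 (0.338) and RNF4 (0.0996) did not pass. For TMEM30B, GLI3, MSL1 and RNF4 the joint fit gave errors of 0.24, 0.31, 0.44 and 0.46 for translation efficiency. The errors of their footprint changes alone were larger, at 0.28, 0.40, 0.66 and 0.54. The printed errors and edgeR p-values of these genes are therefore likely too small.

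Among factors of initiation, EIF4B and PABPC1 were the 2 of 33 measured genes that passed, both higher (background 0.0773%), and the median change of the list was 0.02. PABPC4, a paralog of PABPC1 named after its values were seen, had a change of 0.77 ± 0.20 that did not pass (edgeR adjusted p = 0.104). None of the 12 measured eIF3 subunit genes passed, and their median was -0.02, with a range from -0.74 to 0.49. The lowest was EIF3M, with 149, 152 and 173 CPM of footprints after eIF3e siRNA against 323, 243 and 299.7 CPM after control siRNA and a change in translation efficiency of -0.74 ± 0.17 (edgeR adjusted p = 0.067). It passed in 6 alternatives, among them the DESeq2 Wald test (adjusted p = 0.00644) and a minimum count of 50 (edgeR adjusted p = 0.0284). The highest was EIF3L at 0.49 ± 0.17 (adjusted p = 0.224), with both footprints (-0.77) and total RNA (-1.26) lower. EIF3M and EIF3L are named after their values were seen.

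Ribosomal protein genes had a median change in translation efficiency of 0.27 over 67 measured members, of which 1 (RPLP1) was called higher (background 0.0773%) and 0 lower. At an unadjusted p of 0.05, 18 were higher and 1 lower (background 6.10% and 5.78%), and 52 of 67 lay above 0 (background 49.8%). Their median change was -0.18 in footprints and -0.46 in total RNA. The median was 0.14 to 0.42 when each library was left out in turn. RPL22 at 1.95 ± 0.49 (edgeR adjusted p = 0.0933) and RPS27A at 1.38 ± 0.57 (adjusted p = 0.32), named after their values were seen, had mean footprint counts of 17.8 and 19.2.

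Elongation and termination factors had a median of -0.28 over 15 measured members, with none called. EEF2, which moves the ribosome along the mRNA, had a large change in both assays. It had 1759, 1824 and 1876 CPM of footprints after eIF3e siRNA, against 4432, 4241 and 4061 CPM after control siRNA. Total RNA stood at 845, 883 and 1013 CPM after eIF3e siRNA, against 1863, 1725 and 1842 CPM after control siRNA. Both were lower in every eIF3e siRNA library (log2 change -1.22 and -0.99), and the change in translation efficiency of -0.24 ± 0.14 did not pass (edgeR adjusted p = 0.511). EEF1A1, which brings aminoacyl-tRNA to the ribosome and has many copies in the genome, had 40.8, 89.7 and 24.1 CPM of total RNA after eIF3e siRNA, against 186, 231 and 111 CPM after control siRNA, and a change in translation efficiency of 1.13 ± 0.54 (adjusted p = 0.435). It passed without eIF3e total RNA replicate 2 (1.78, adjusted p = 0.0258).

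The median change of interferon-stimulated genes was larger in total RNA than in footprints. Of 37 measured members, 33 were called higher in total RNA (background 23.1%) and 19 in footprints (background 10.0%), with medians of 1.02 and 0.69. The median change in translation efficiency was -0.21, 25 of 37 lay below 0 (background 50.2%), and 1 (IFIT1) was called lower (background 0.166%) and 0 higher. IFIT3 at -0.80 ± 0.19 (edgeR adjusted p = 0.0713) and OAS1 at -0.72 ± 0.18 (adjusted p = 0.0911), named after their values were seen, did not pass. The median of the list was -0.34 to -0.17 when each library was left out in turn.

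In other lists no more than 1 gene passed. Immediate early genes, a list that holds ID1 as the member called lower, had a median of -0.26 over 29 members. Subunits of ATP synthase encoded in the nucleus had a median of 0.25 over 18 members. ATP5B at 0.26 ± 0.13 (edgeR adjusted p = 0.429) and ATP5A1 at 0.30 ± 0.16 (adjusted p = 0.485), its most abundant members, did not pass. Mitosis genes had a median of -0.36 over 31 members, and of -0.35 to -0.21 when each library was left out in turn, with MKI67 at 0.45 ± 0.20 (adjusted p = 0.385) and ANLN at -0.07 ± 0.21 (adjusted p = 0.936). DNA replication genes had a median of -0.24 over 28 members, which ranged over -0.39 to -0.02 when each library was left out in turn, with RRM1 at 0.11 ± 0.26 and POLE at 0.03 ± 0.31. Splicing factors of the SR and hnRNP families had a median of -0.23 over 30 members, with HNRNPU at -0.50 ± 0.20 (adjusted p = 0.296) and HNRNPF at -0.16 ± 0.15 (adjusted p = 0.746). Host genes of small nucleolar RNAs had a median of -0.26 over 5 members, with NCL at -0.26 ± 0.15 (adjusted p = 0.537) and EIF4A2 at -0.09 ± 0.18 (adjusted p = 0.895). Markers of non-epithelial cells, 5 of 20 measured, had a median of 0.31, with VIM at -0.59 ± 0.16 (adjusted p = 0.127) and CD14 at 0.35 ± 0.24 (adjusted p = 0.595).

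The remaining lists, apart from those of cell type markers, had medians between -0.20 and 0.16 with none called. Among mitochondrial genes encoded in the nucleus these were -0.10 for 73 mitochondrial ribosomal proteins, 0.11 for 36 complex I genes, 0.16 for 25 genes of complexes II to IV and 0.14 for 19 genes of the citric acid cycle. Secretory genes had medians of 0.15 (27 vesicle coat genes), 0.07 (31 genes of translocation into the endoplasmic reticulum) and 0.01 (25 chaperones of the endoplasmic reticulum). Proteasome subunits (30) were at -0.14, cytosolic chaperones (29) at -0.13, glycolysis genes (16) at -0.14 and cholesterol synthesis genes (26) at -0.12. Genes of the ATF4 response (18) had a median of -0.00, and integrins (26) one of 0.00. Genes of mitochondrial import (27) were at 0.07, aminoacyl-tRNA synthetases (22) at -0.07, solute carriers (30) at -0.05, growth factor receptors and ligands (32) at 0.11 and lysosomal proteins (30) at 0.11. Matrix genes (27) were at 0.08, epithelial junction genes (29) at 0.09, squamous differentiation genes (26) at -0.13, NRF2 and antioxidant genes (30) at -0.11 and p53 targets (19) at -0.20. Leaving out 1 library moved many of these medians by more than 1.5 times, and those of p53 targets (-0.29 to 0.10), cytosolic chaperones (-0.19 to 0.01), cholesterol synthesis (-0.17 to 0.00), mitochondrial import (-0.05 to 0.10) and solute carriers (-0.14 to 0.03) past 0, as it did those of the ATF4 response, integrins and chaperones of the endoplasmic reticulum, which lie next to 0. Among marker lists, luminal markers had a median of -0.48 over 6 members with none called (-0.74 to -0.33 with libraries left out), and basal markers one of 0.02 over 11 members with SFN called lower. Blood cell (0.43) and fibroblast (0.26) markers had 2 measured members each.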

How the data were processed

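Raw read counts were deposited per gene symbol, in 1 table for footprints (20248 symbols) and 1 for total RNA (56475 symbols, among them all of the footprint table). Per the submitters' processing notes, cutadapt 1.18, Bowtie 1.1.2, STAR 2.5 and HTSeq were used, and hg38 and GRCh38 are named as builds. What each tool did, the annotation and counted feature, the use of strand and the treatment of reads shared between gene copies is not stated in the sources used here. Titles gave the sample of every column used, and 0 columns were left without one. The 3 single footprint libraries without siRNA were not used.

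The counts were tested with edgeR 4.0.16 under R 4.3.3. Genes passing filterByExpr with a minimum count of 10 in both assays were kept (10506 passed in total RNA, 9228 in footprints and 9055 in both), and TMM factors were computed within each assay. Translation efficiency was the term for assay by siRNA of 1 robust quasi-likelihood fit over 12 libraries (F test, two-sided), and footprints and total RNA were tested in fits of their own over 6 libraries each. Adjustment was by Benjamini-Hochberg over all genes tested, with a threshold of 0.05. Errors are standard errors of the fitted log2 change. Footprints per RNA is the ratio of mean CPM in the assays, and its absolute level depends on the counted feature.

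The members, the 36 gene lists and the 5 marker lists were chosen with earlier results of these data known. Named genes are EIF3E, up to 15 called genes per direction with a mean count of at least 50 in each assay, and up to 4 called members of each list or its 2 most abundant, which are printed where the median of the list was at least 0.2 away from 0. Genes that passed below that count minimum and a few others are named beyond this rule, the others after their values were seen. Of the 9055 symbols, 8648 are current RefSeq symbols, 372 are older ones and 35 are in neither set. Gene starts were read from a table of RefSeq promoters (GRCh38.p14, 250 bases before and 50 after the start), whereas protein sequences were not used here.

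Alternatives were DESeq2 1.42.0 size factors and Wald test, TMM over all 12 libraries, library totals, no filter, a minimum count of 50, limma 3.58.1 voom, the replicate number as a block, leaving out the mitochondrial genome and leaving out each library. The scripts were tested on simulated data. Footprint libraries held 1889543 to 3447360 counts and total RNA libraries 4263767 to 5646270, and a floor of 3 counts covers counting error only.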

Additional observations from a re-analysis of the deposited data

How the results depend on the processing

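All 22 called genes kept their direction in every alternative that gave a value, while the counts of calls moved. Against 7 higher and 15 lower, edgeR called 4 and 15 with TMM factors over all 12 libraries, 3 and 89 with library totals (3.26% of calls higher, against 31.8%), 22 and 21 with no filter beyond 1 count in each assay (12833 genes), and 18 and 27 with a minimum count of 50 (5232 genes, fewer tests). The DESeq2 Wald test called 81 and 70, and limma-voom 7 and 13. DESeq2 size factors (7 and 15) and leaving out the mitochondrial genome (7 and 12, without its 3 calls) stayed within 1.5 times. Of the main calls, 3 higher and 15 lower were shared with library totals, 7 and 15 with no filter, 7 and 13 with a minimum of 50, 7 and 14 with the Wald test and 5 and 12 with limma-voom. Total RNA was called lower in 1210 genes with library totals, against 2128, and footprint counts stayed within 1.5 times in all alternatives.

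Leaving out 1 library at a time gave 0 to 22 higher and 0 to 30 lower. Without footprint replicate 1, 2 or 3 of eIF3e siRNA the counts were 11 and 16, 3 and 9, and 22 and 30, and without those of control siRNA 16 and 12, 11 and 11, and 12 and 23. Without total RNA replicate 1, 2 or 3 of eIF3e siRNA they were 1 and 7, 6 and 12, and 0 and 2, and without those of control siRNA 3 and 7, 0 and 0, and 3 and 6. The cause was not tested.

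Footprint and RNA libraries with the same replicate number deviated together little, with correlations of 0.0750, 0.112 and 0.0938 after eIF3e siRNA and 0.276, 0.00202 and 0.265 after control siRNA, and 5 of 6 footprint libraries correlated best with their own number. The labels do not say whether the numbers pair the samples. With the replicate number as a block 13 genes were higher and 19 lower, and with siRNA and number as a block 84 and 68, each time with the 7 and 15 among them.

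Library totals moved the median of all genes to -0.20 and the lists with it: relative to all genes, no median of 47 lists and families moved by more than 0.0262. Among named genes that did not pass, 10 (EIF3M, PABPC4, MT-ND5, IFIT3, OAS1, HIST1H1C, S100A11, S100A14, TMED2 and VIM) passed in the DESeq2 Wald test, and 8 (EIF3M, PABPC4, RPL22, EEF1A1, HIST1H1B, HIST1H1C, S100A14 and TMED2) when a library was left out. Some changed sign. RRM1 was at -0.0842 with library totals and -0.0612 to 0.349 over the fits that leave out a library, and POLE at -0.0196 with TMM factors over all libraries, -0.180 with library totals (the shift of all genes) and -0.182 to 0.320 with libraries left out. ANLN ranged over -0.180 to 0.141 and EIF4A2 over -0.201 to 0.0130 with libraries left out. Depth limits what could be seen: the median SE was 0.67 in genes with up to 20 footprint counts and 0.155 above 1000.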

Other observations

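Gene families grouped by the start of their symbol, chosen after their values were seen, are given without a test. Of 45 measured genes whose symbols start with HIST, 40 had a change in translation efficiency below 0 (background 50.2%), with a median of -0.52 against -0.00172 over all genes tested. Their median change was -0.06 in footprints and 0.54 in total RNA. HIST1H1E was the 1 member called, lower (background 0.166%), and the linker histone genes HIST1H1B (-1.66 ± 0.39) and HIST1H1C (-0.78 ± 0.18) did not pass (edgeR adjusted p = 0.067 each). The median of the family was -0.64 to -0.35 when each library was left out in turn. Histone copies share sequence, and the counting of shared reads is not given in the sources used here.

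Of 12 measured symbols that start with S100, most of them for calcium-binding proteins of epithelial cells, 10 lay below 0 (background 50.2%), with a median of -0.57, and 7 were lower at an unadjusted p of 0.05 (background 5.78%) with none called. S100A14 had a change of -0.79 ± 0.18 (edgeR adjusted p = 0.067) and S100A11 one of -0.59 ± 0.15 (adjusted p = 0.0962). Of 144 measured ZNF genes, 103 lay below 0 (background 50.2%), with a median of -0.30 and none called.

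All 8 measured IFIT and OAS genes, which encode interferon-induced sensors of foreign RNA, lay below 0 (background 50.2%). Their medians were -0.47 in translation efficiency, 0.43 in footprints and 0.96 in total RNA. IFIT1 was the 1 member called, lower (background 0.166%).

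All 9 measured TMED genes, which encode cargo receptors of early secretory vesicles, lay above 0 (background 49.8%), with a median of 0.38. TMED2 had a change of 0.70 ± 0.15 (edgeR adjusted p = 0.0543), and passed in 7 alternatives, among them the DESeq2 Wald test (adjusted p = 0.00166) and limma-voom (adjusted p = 0.0483). The 141 measured TMEM genes, of which 2 were called higher (background 0.0773%), had a median of 0.10 and the 171 SLC genes one of 0.12.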
